A study of Arabidopsis thaliana with 27 samples.

Results

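The lower part of the Arabidopsis thaliana embryo was followed from the globular to the heart stage by comparing 3 arrays of the heart-stage root pole with 3 arrays of the basal region of the globular embryo. These 6 of the 27 arrays in the series were chosen by their titles (heart-stage-root and globular-basal, replicates 1 to 3 of each), without reference to any measured value. All 27 arrays hold RNA of embryo tissue cut out by laser capture microdissection from wild-type Col-0 plants of stock N1092, grown on compost in a growth room with a 16 h day and watered on alternate days. Humidity is given as about 30% for all of them except 1 globular apical array, given as 50%. That array enters the comparison of the upper embryo, the lower against upper comparison and the shared estimate of spread. No transgene, mutation or treatment is given for either group, so the groups differ in stage and captured region. Biotin-labelled material made from total RNA was hybridised to the Affymetrix ATH1 array, a 1-colour array on which each gene is read by a set of short probes. The deposited values are linear intensities, 1 for each probe set.

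In Arabidopsis the fertilised egg divides into an apical cell, which forms most of the embryo, and a basal cell, which forms the suspensor. The lower tier of the globular embryo gives rise to the hypocotyl and most of the root, and the uppermost suspensor cell, the hypophysis, gives rise to the quiescent centre and the central root cap. By the heart stage the root pole has been laid down opposite the emerging cotyledons. Auxin response, the PLETHORA transcription factors and the SHORT-ROOT and SCARECROW pathway are known to organise this pole.

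The labels do not say how many embryos, plants or sections went into an array, nor how the boundary between regions was drawn. P-values therefore rest on array-to-array spread alone, part of which may be technical. In such captures fewer cells of a type and less RNA per cell cannot be told apart. The 3 heart root arrays had median intensities of 41.2, 42.8 and 35.6, and the 3 globular basal arrays had higher medians of 56.9, 54.3 and 65.1, although the trimmed mean was about 100 on each. The groups were not tight. Pairwise Pearson correlations of log2 intensity were 0.584, 0.615 and 0.549 among the heart root arrays and 0.669, 0.578 and 0.586 among the globular basal arrays. None of the 6 arrays correlated best with an array of its own group among the 25 arrays with a group.

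Heart root replicate 1 correlated with the other heart root arrays at 0.584 and 0.615, above the 0.549 between replicates 2 and 3. The closest array to replicate 1 was heart cotyledon replicate 1, at 0.837. Its correlation with globular basal replicate 2 was 0.758, above that with either other heart root array. Heart root replicates 2 and 3 also correlated best with globular basal replicate 2, at 0.587 and 0.622. The log2 ratio of the 3′ to the 5′ actin control, a sign of RNA integrity, was 1.49, 0.61 and 0.44 in heart root and -1.14, 0.34 and -1.75 in globular basal, so it was higher in every heart root array. The same ratio for the GAPDH control was 5.57, 6.01 and 5.87 against 6.91, 5.30 and 6.25, and there the groups overlapped. The part that median intensity and RNA integrity play in the differences below was not tested.

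Of 22746 probe sets tested, 4 passed at an adjusted p of 0.05 (0.0176%; limma, 1 mean per group over 25 arrays, Benjamini-Hochberg). In the heart-stage root pole 1 was higher (0.0044%) and 3 were lower (0.0132%) than in the globular basal region. At an unadjusted p under 0.05 there were 487 higher (2.14%) and 958 lower (4.21%). The called split of 1 higher and 3 lower was the same after quantile normalization. It was 7 higher and 3 lower after median centring, and 5 higher and 3 lower with array weights. Leaving out heart root replicate 1 alone raised the count to 32, with 20 higher and 12 lower, and the same 4 were among them. The count was 9 without heart root replicate 2, 7 without globular basal replicate 1, and 9 without globular basal replicate 3. With only the 6 arrays in the fit no probe set passed, and 1633 had an unadjusted p under 0.05.

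The strongest fall was that of AT3G24510, a gene that carries only a locus code in the name tables used here. Its intensity was 3617.9, 466.3 and 19604.8 in the 3 globular basal arrays and 2.1, 2.0 and 7.8 in the 3 heart root arrays. The 2 groups were far apart on every array, although the globular values themselves spanned a wide range. The group means were 7896 ± 10261 and 3.97 ± 3.32 (SD, n = 3 each). The fitted difference was -7.88 (SE 0.87, limma adjusted p = 3.6e-05) on the log2(intensity + 10) scale, which understates the change of dim probe sets. In the upper embryo the same gene had a mean of 2227 ± 902 in the globular apical region and 3.20 ± 3.37 in the heart cotyledon, a log2 difference of -7.33 (adjusted p = 0.000122), in a comparison that called 10 probe sets lower (0.044%) and 1 higher (0.0044%). At the later torpedo stage it stayed at or below 37.8 on every array.

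AT2G30810, also without a symbol here, fell in the same way. It read 2924.6, 1693.1 and 4557.7 in globular basal and 91.5, 48.1 and 37.9 in heart root. The lowest globular value was far above the highest heart value. On the log2 scale it fell by 5.43 (SE 0.77, limma adjusted p = 0.00123), and by 5.07 in the upper embryo (adjusted p = 0.00298). Its torpedo basal mean was 18.8 ± 12.4 (SD, n = 3). Fitted on the 12 globular and heart arrays alone, its adjusted p in the lower embryo was 0.0735.

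The third probe set that fell, 264461_s_at, is listed with several genes and is not assigned to one. It read 696.4, 394.3 and 328.0 in globular basal and 12.7, 7.0 and 2.9 in heart root. These groups were also fully separate. Its log2 difference was -4.75 (SE 0.69, limma adjusted p = 0.0017), and -5.71 in the upper embryo (adjusted p = 0.000122). With a pseudocount of 1 its adjusted p was 0.0509.

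The single rise was that of 261305_at, a probe set to which the platform table used here gives no gene. It read 1648.5, 2514.4 and 4919.1 in heart root and 9.1, 72.4 and 26.0 in globular basal. The dimmest heart root array was far above the brightest globular basal array. It rose by 6.16 on the log2 scale (SE 0.83, limma adjusted p = 0.000845). Heart cotyledon had a mean of 65.9 ± 53.9 and globular apical 12.1 ± 14.3 (SD, n = 3 each), a log2 difference of 1.49 in the upper embryo (adjusted p = 1). Its highest value outside heart root was 903 on 1 torpedo basal array, where the group mean was 396 ± 442. The 3 torpedo apical arrays read 220 to 268, and the torpedo root mean was 20.3.

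**Figure D1:**
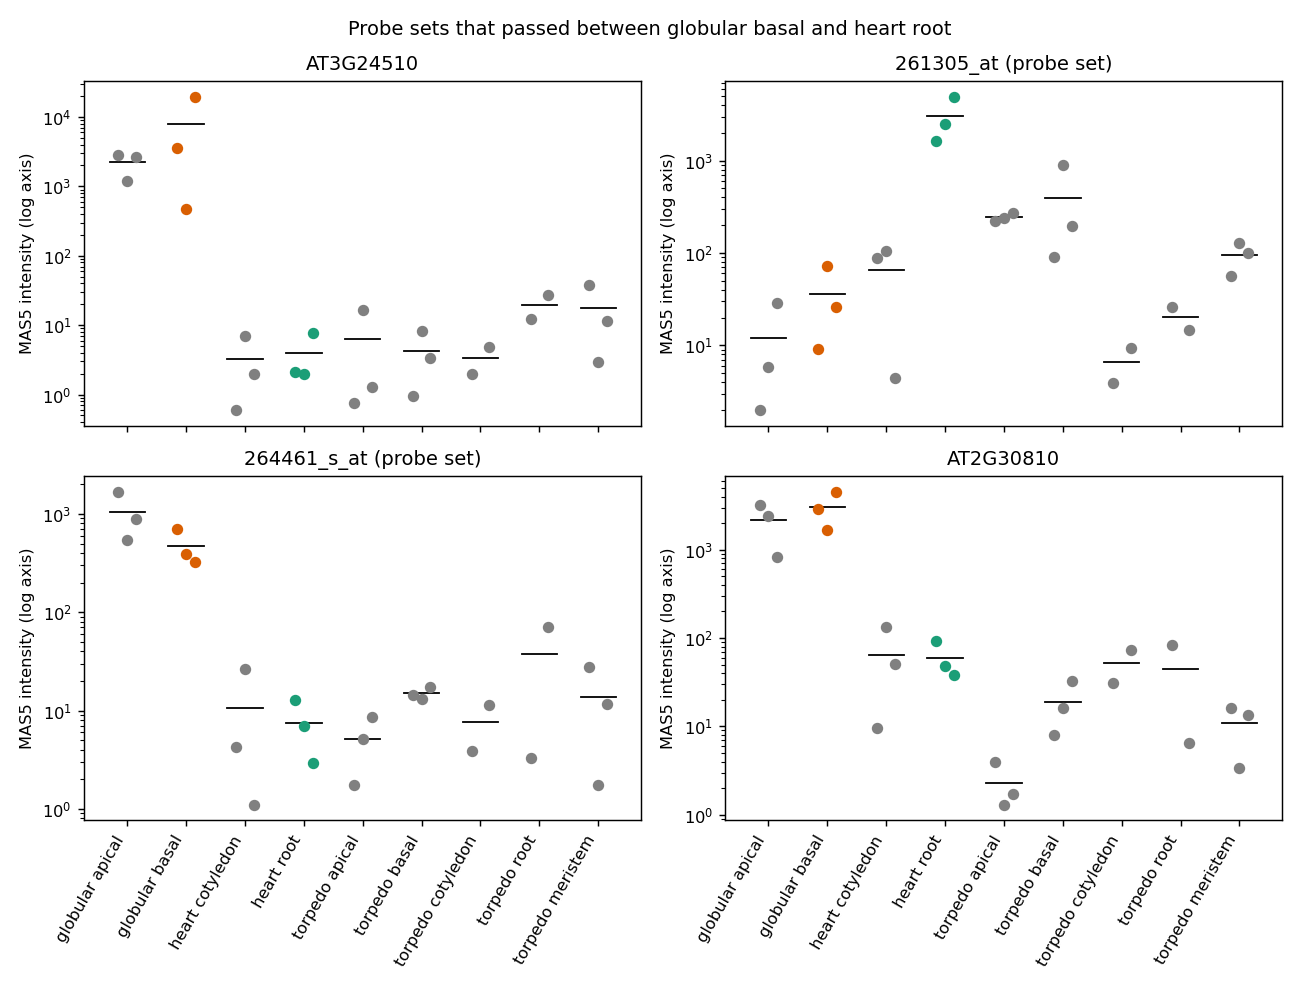
MAS5 intensity on a log axis (vertical) of the 4 probe sets that passed, 1 panel each, with 1 point per array in each of the 9 groups (horizontal, globular basal in orange, heart root in green, the others in grey) and a black line at the group mean. The 3 probe sets that fell are high on all globular basal and globular apical arrays and low on all heart root arrays, whereas 261305_at reads 1648.5 to 4919.1 in heart root and at most 72.4 in globular basal.

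Whether the lower embryo differed from the upper embryo in its passage to the heart stage was tested directly, as the difference between the lower and the upper comparison. These rest on separate sets of 6 arrays. No probe set of 22746 passed (limma, smallest adjusted p 0.884), 965 had an unadjusted p under 0.05 (4.24%), and array weights also gave 0 calls, with 1441 unadjusted. For the 3 probe sets that fell, the lower minus upper log2 difference was -0.55 for AT3G24510 (95% interval -3.07 to 1.97), -0.36 for AT2G30810 (-2.59 to 1.86) and 0.97 for 264461_s_at (-1.05 to 2.98). These intervals are wide with 3 arrays a group, and differences of several-fold either way lie within them. For 261305_at the lower minus upper difference was 4.67 (SE 1.17, unadjusted p = 0.000503, adjusted p = 0.884), which does not pass.

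The differences that did not pass were examined by size. The conditions were single-gene probe sets with no overlap between the 2 groups, an unadjusted p under 0.01 and a mean of at least 100 in the higher group. Of 13513 single-gene probe sets, 62 met them with heart root higher (0.459%) and 62 with heart root lower (0.459%). The 12 largest differences in each direction are described here as values. The 12 highest ranged from 4.50 to 5.67 on the log2 scale with adjusted p-values of 0.0968 to 0.562 (limma), and none passed. The 12 lowest ranged from -7.88 to -3.84, and AT3G24510 and AT2G30810 were the 2 among them that passed.

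LHCB4.1, an antenna protein of photosystem II, headed the 12 highest. It read 200.2, 1985.7 and 2418.4 in heart root and 6.4, 22.0 and 4.6 in globular basal. Replicate 1 was the lowest of the heart root arrays by a wide margin but still above every globular basal array. The log2 difference was 5.67 (SE 1.13, limma adjusted p = 0.0968). Without heart root replicate 1 it was 6.80 with an adjusted p of 0.007, and with array weights the adjusted p was 0.023. In the upper embryo its difference was 1.64, and its torpedo basal mean was 1345 ± 1005 (SD, n = 3).

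ALDH7B4, an aldehyde dehydrogenase, read 893.3, 6065.7 and 1818.6 in heart root and 57.1, 324.9 and 2.7 in globular basal. The log2 difference was 5.03 (SE 1.20, adjusted p = 0.226), against -0.30 in the upper embryo. GILT, the only other gene with a symbol among the 12, read 988.2, 531.0 and 3152.1 against 6.0, 173.4 and 39.5, a difference of 4.51 (SE 1.29, adjusted p = 0.416). In both genes the groups stayed apart, with a wide spread among the arrays of each group.

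The other 9 of the 12 highest carry only locus codes. AT1G47540 read 16414.6 and 12242.2 on heart root replicates 2 and 3 but 712.2 on replicate 1, against 32.4, 429.9 and 126.7 in globular basal. AT5G11650 read 392.6, 3557.1 and 2154.8 against 21.2, 31.8 and 79.0, a log2 difference of 4.90 (SE 1.05, adjusted p = 0.129). AT5G09300 was the most even of the heart root groups, at 840.4, 1325.1 and 1250.7 against 8.2, 182.4 and 25.1, with a difference of 4.50 (SE 1.01, adjusted p = 0.166). The remaining 6, AT1G01800, AT1G16810, AT4G12060, AT5G51770, AT1G48430 and AT5G41670, differed by 4.63 to 5.43. In AT5G51770 and AT5G41670 the low heart root array was replicate 2, at 56.3 and 53.9, rather than replicate 1.

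The same 12 genes were not uniformly higher in the upper embryo. There 6 of 12 were higher at the heart stage, with log2 differences from -1.59 to 2.33, and all 12 had a lower mean in heart cotyledon than in heart root. Of the 12, 10 had an unadjusted p under 0.05 for the lower minus upper difference, none passing after adjustment. Since these genes were picked for a high heart root value, that direction follows in part from the choice. Their torpedo basal mean was below heart root in 11 of 12, and below globular basal in 1, counts that also follow in part from the choice.

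Among the 12 lowest, AT3G46860 read 34.7, 2410.9 and 25553.5 in globular basal and 22.4, 24.9 and 15.2 in heart root. The first globular basal array lay just above the heart root values, and the log2 difference of -5.52 (SE 1.47, adjusted p = 0.311) rests on the other 2. AT5G06190 read 8974.3, 2754.2 and 76.3 against 22.6, 46.0 and 30.4, a difference of -4.94 (SE 1.19, adjusted p = 0.231). This gene passed in the upper embryo, where it fell by 6.28 on the log2 scale (limma adjusted p = 0.0395). AT1G09370 read 1770.6, 895.4 and 1083.9 in globular basal and 486.2, 2.2 and 47.9 in heart root, a difference of -4.10 (SE 0.94, adjusted p = 0.188). It also passed in the upper embryo, where it fell by 5.38 on the log2 scale (adjusted p = 0.0168), and its highest heart root value was on replicate 1.

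The other 7 of the 12 lowest, all with locus codes alone, differed by -4.74 to -3.84. Heart root replicate 1 was the highest heart root array in 6 of them, for example 602.5 against 20.7 and 6.0 in AT1G10590 and 669.0 against 79.9 and 169.8 in AT5G55290. AT3G09085 was low on all 3 heart root arrays, at 3.2, 4.7 and 1.8, against 290.4, 1324.9 and 30.4 in globular basal. Of the 12 lowest, 11 were also lower at the heart stage in the upper embryo, by -7.33 to 0.48, and 1 had an unadjusted p under 0.05 for the lower minus upper difference. AT5G10710 was the exception in direction, with 148.0, 261.8 and 10117.1 in globular basal, 46.9, 45.4 and 36.6 in heart root and an upper difference of 0.48. All 12 had a globular apical mean of at least 100 that was above their heart root mean. Their torpedo basal mean was below heart root in 3 of 12, and below globular basal in 11. These genes were picked for high globular basal and low heart root values. Comparisons of other groups with these 2 groups therefore follow in part from the choice.

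**Figure D2:**
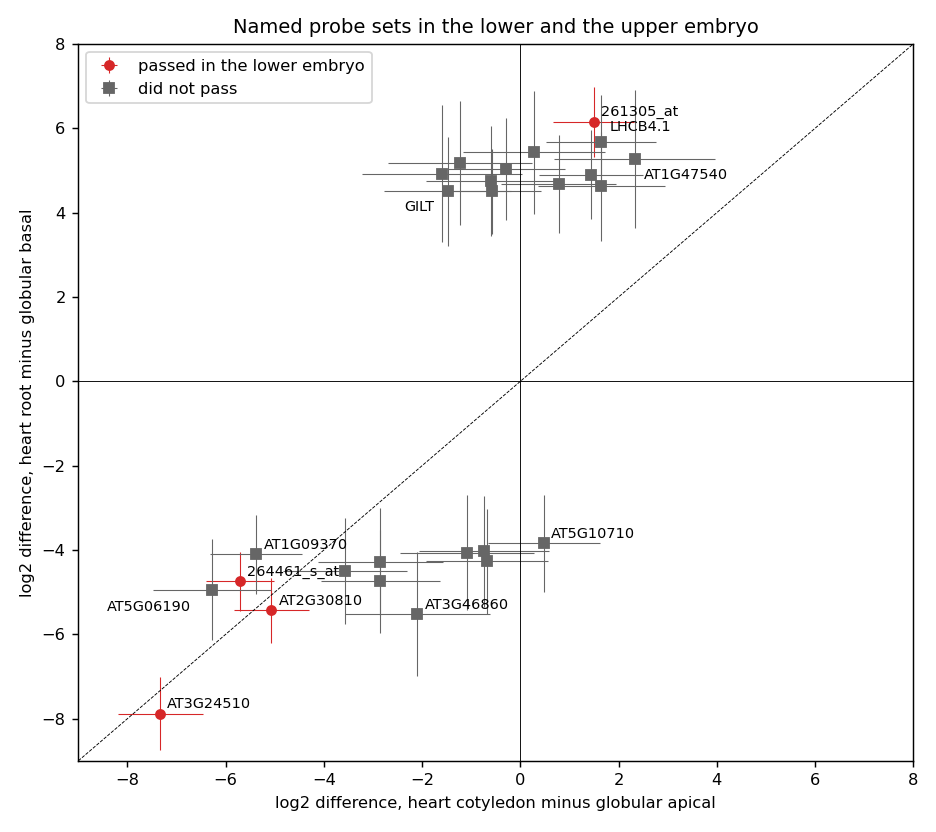
Log2 difference in the lower embryo (heart root minus globular basal, vertical axis) against that in the upper embryo (heart cotyledon minus globular apical, horizontal axis) for the 4 probe sets that passed (red circles) and the others of the 12 highest and 12 lowest (grey squares), with bars of 1 standard error and a dashed line of equal difference. The lowest 12 lie mostly in the lower left, from -7.33 to 0.48 on the horizontal axis, and the highest 12 spread on both sides of 0, from -1.59 to 2.33.

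The genes that met these conditions and carry a symbol numbered 17 higher and 5 lower, a set listed after its values had been seen. Their adjusted p-values ran from 0.0968 to 0.626 (limma), so none passed. Besides LHCB4.1, 3 genes of chloroplast proteins are given first. PSAN, a subunit of photosystem I, read 439.2, 3805.9 and 1871.6 in heart root against 154.0, 367.6 and 9.6, a log2 difference of 3.79 (SE 1.18). CHLM, the methyltransferase of chlorophyll synthesis that acts on magnesium protoporphyrin, read 390.8, 1023.2 and 3573.4 against 159.7, 100.1 and 189.9, a difference of 2.88 (SE 0.91). CaS, a calcium-sensing protein of the thylakoid, read 285.8, 1097.4 and 2494.3 against 13.5, 167.4 and 86.4, a difference of 3.67 (SE 1.17). In each of these 3 genes replicate 1 was the lowest heart root array.

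OLEO3, an oleosin of the coat of seed oil bodies, read 303.4, 6334.2 and 3311.7 in heart root and 52.9, 178.1 and 127.0 in globular basal, a log2 difference of 4.00 (SE 1.25, adjusted p = 0.5). Its value in the upper embryo was similar in size, at 3.36, and its torpedo basal mean was 3098 ± 1020 (SD, n = 3). It was the single measured member of 19 listed seed storage and oil genes. ALDH6B2, an enzyme of valine breakdown, differed by 4.26 (SE 1.46). RBP45B, an RNA-binding protein, read 811.2, 2409.1 and 1383.9 against 35.8, 373.9 and 14.9, a difference of 4.21 (SE 1.18), where the upper embryo gave -2.49. PRP39, a splicing factor, differed by 3.48 (SE 1.20). Both serine carboxypeptidase-like genes of the set were uneven. The gene scpl48 read 218.2, 1293.2 and 139.4 against 39.9, 11.1 and 67.8, and SCPL27 read 102.9, 21.2 and 1110.6 against 9.5, 16.3 and 14.7. Over the 29 measured SCPL genes the median was -0.43, with 8 above 0 and none called. Heart root lay all above globular basal in 2 of the 29 and all below in 5, beside 2.09% and 15.4% of all probe sets. The plastid gene rps3, of a ribosomal protein, read 181.2, 244.6 and 2497.9 against 73.3, 77.7 and 1.2, a difference of 3.51 (SE 1.06).

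Proteins of ubiquitin transfer and removal also stood in that set. CUL4, the scaffold of a class of ubiquitin ligases, read 996.4, 578.1 and 1538.6 in heart root and 22.7, 358.3 and 16.4 in globular basal, a log2 difference of 3.83 (SE 1.10). UBP18, a ubiquitin protease, read 109.3, 48.2 and 3645.9 against 19.9, 7.6 and 12.3, so its difference of 3.69 (SE 1.21) leaned on 1 array. PUB49, a U-box protein, differed by 2.40 (SE 0.76). HON4, a linker-histone-like protein, read 104.4, 173.2 and 233.8 against 12.9, 15.5 and 45.1, a difference of 2.44 (SE 0.84).

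The 5 with a symbol that were lower in heart root were PDF1A, EXPA20, LCR24, SWEET8 and NDB3. PDF1A, a peptide deformylase of organelles, read 5.2, 12.1 and 76.8 in heart root and 630.6, 507.5 and 220.8 in globular basal, a log2 difference of -3.79 (SE 0.91). EXPA20, an expansin that loosens cell walls, read 6.4, 11.1 and 12.3 against 46.1, 601.1 and 170.7, a difference of -3.22 (SE 0.85). The upper embryo gave 0.20 for EXPA20, with means of 18.2 ± 6.12 and 31.3 ± 36.7, so the gene was bright in neither upper group. SWEET8, a sugar transporter, read 79.1, 71.9 and 60.6 against 2343.6, 486.6 and 158.3, a difference of -2.86 (SE 0.93). NDB3, an alternative NAD(P)H dehydrogenase of mitochondria, was the most even of the 5, at 45.6, 25.2 and 16.4 against 168.6, 134.2 and 154.7, a difference of -2.12 (SE 0.73). LCR24, a defensin-like cysteine-rich peptide, read 52.4, 88.3 and 62.2 against 1249.3, 1258.7 and 107.7, a difference of -2.91 (SE 0.86). In the upper embryo LCR24 passed, where it fell by 5.00 on the log2 scale (limma adjusted p = 0.0154).

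**Figure D3:**
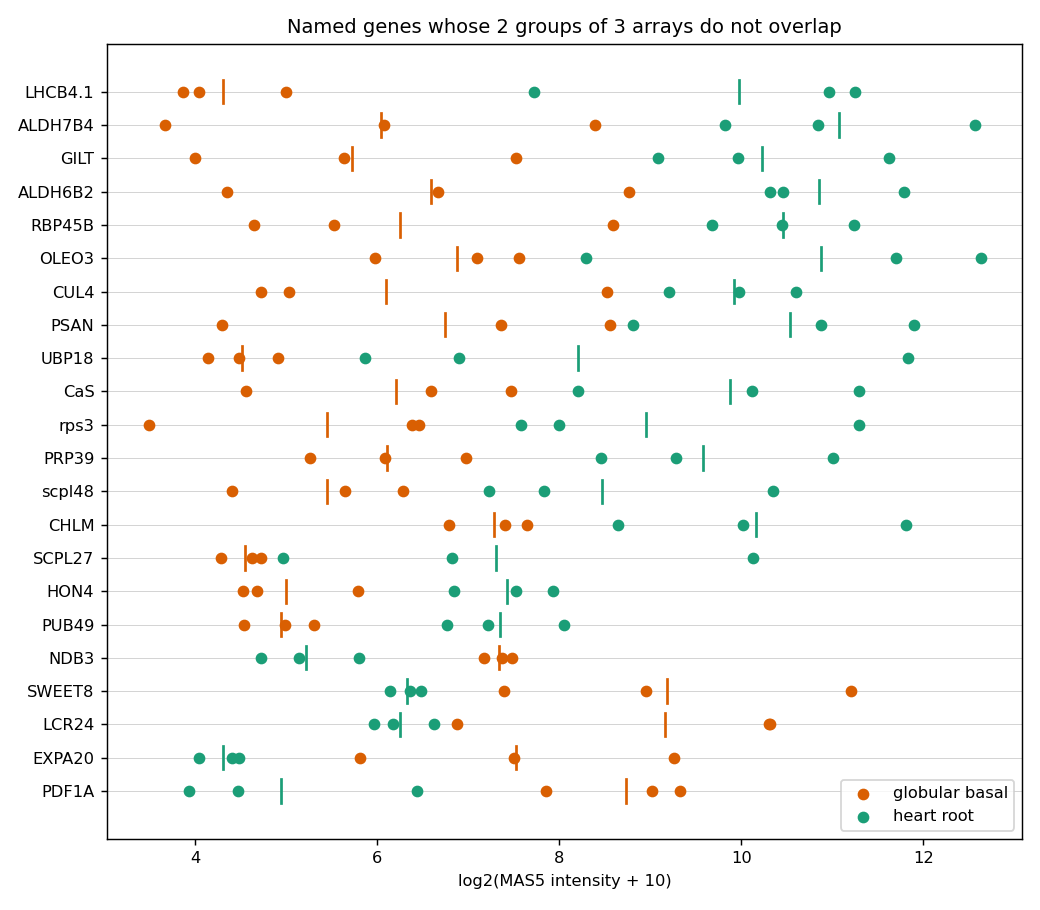
Log2(MAS5 intensity + 10) (horizontal axis) of the 22 symbol-bearing genes that met the conditions, 1 row per gene and 1 point per array, for heart root (green) and globular basal (orange), with a vertical bar at the mean of the log2 values of each group. The upper 17 genes have 3 heart root points to the right of 3 globular basal points and the lower 5 have the reverse order.

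The named regulators of the root pole were then read directly. Of 21 listed genes of the root pole and its stem cell niche, 5 have a single-gene probe set with a name here, and the others were not analysed here. None of the 5 passed, against 0.0176% of all probe sets. JKD, a zinc-finger factor that acts with SHORT-ROOT and SCARECROW in ground tissue, read 42.0, 168.2 and 506.8 in heart root and 9.1, 10.1 and 76.1 in globular basal. The groups overlapped through the third globular basal array. The log2 difference was 2.39 (95% interval 0.59 to 4.20, unadjusted p = 0.0113, limma adjusted p = 0.651), and that in the upper embryo was -0.95. Its mean in heart root was 239 ± 240 (SD, n = 3) and in heart cotyledon 14.6 ± 16.6.

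BBM, an AP2 factor of the PLETHORA group, was bright on single arrays of both groups. It read 557.3, 510.7 and 9.4 in heart root and 6.0, 2851.1 and 68.5 in globular basal. Its log2 difference was 0.22 with a 95% interval from -2.44 to 2.89, which holds differences of several-fold in either direction. OBE1, a PHD-finger protein needed for root meristem initiation, read 232.0, 3.6 and 1.5 against 4.0, 236.1 and 4.2, with 1 bright array on each side. CR4, the receptor kinase also known as ACR4 that limits divisions in the root cap stem cells, read 58.1, 169.9 and 2.8 against 241.7, 16.7 and 51.1, a difference of -0.46 (SE 1.03). CLE40, a peptide of the same root cap pathway, was dim in both groups, at 23.8, 19.5 and 25.6 against 46.1, 31.1 and 33.3. For BBM, OBE1 and CR4 the sign of the difference turned when single arrays were left out.

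Of 21 listed genes of the embryo axis and auxin patterning, 3 were measured, and none passed. IAA30, an Aux/IAA repressor of auxin response, read 77.4, 42.0 and 37.7 in heart root and 97.1, 108.8 and 663.0 in globular basal, a log2 difference of -1.77 (SE 0.83, adjusted p = 0.767). IAA20, of the same family, read 300.5, 14.5 and 13.8 against 25.4, 24.6 and 37.1, and its difference of 0.55 turned to -0.68 without heart root replicate 1. LHW, a bHLH factor of vascular initials, read 100.6, 146.3 and 4.0 against 277.9, 120.5 and 79.1, a difference of -1.26 (SE 1.03). Over the 7 measured Aux/IAA genes the median was -0.60, with 3 above 0 and none called. IAA34 had the lowest value of these, at 21.3, 5.8 and 35.6 against 72.6, 71.2 and 286.2, a difference of -2.15 (SE 0.83). The 8 measured of 21 genes of auxin synthesis, inactivation and perception all had differences below 0, with a median of -0.56, and none was called. Of these, YUC2, a flavin monooxygenase of auxin synthesis, read 84.8, 156.2 and 134.8 against 328.8, 163.9 and 468.1.

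These medians stand against a shift of the whole array. The median difference of the 22746 probe sets was -0.39 in log2 units, and 29.4% lay above 0. On the deposited scale 3507 probe sets had all heart root arrays below all globular basal arrays (15.4%) and 476 had them all above (2.09%). After quantile normalization these counts were 1341 and 979, and after median centring 965 and 1671, with medians of all probe sets of -0.06 and 0.08. Small negative differences on the deposited scale lie within this shift, which varied with brightness. Among the 3457 probe sets with a mean of at least 200 over the 25 arrays the median was -0.02 and 49.3% were above 0.

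**Figure D4:**
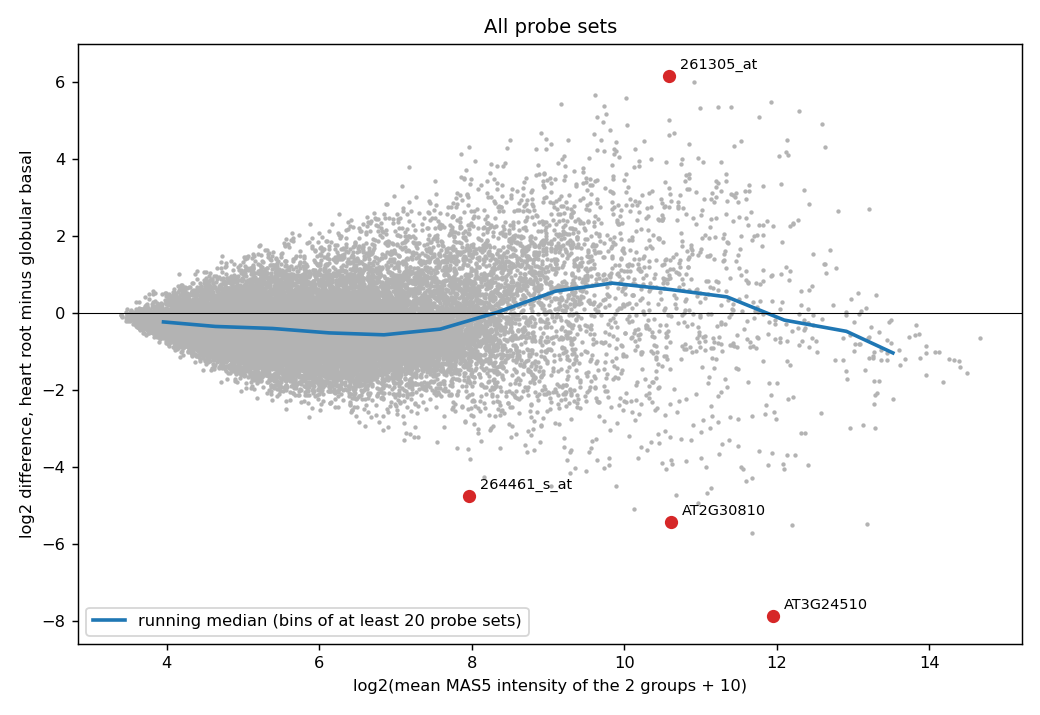
Log2 difference, heart root minus globular basal (vertical axis), against log2 of the mean MAS5 intensity of both groups + 10 (horizontal axis), for 22746 probe sets, with the running median in blue and the 4 that passed in red. The running median lies at -0.56 around 6.85 on the horizontal axis, at 0.78 around 9.84, and at -1.03 at the bright end around 13.5.

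Families defined by gene symbol were read against that background. No measured member of any family passed. The 22 measured nuclear photosynthesis genes had a median of 0.02 with 11 above 0, and 4 had an unadjusted p under 0.05, all higher in heart root, beside 2.14% higher and 4.21% lower of all probe sets. The groups did not overlap in 5 of the 22, with heart root above in 2 and below in 3, beside 2.09% and 15.4% of all probe sets. The 4 were LHCB4.1, PSAN, LHCB4.2 and PSAE-1. LHCB4.2, the close relative of LHCB4.1, read 88.1, 957.4 and 967.3 against 30.2, 103.0 and 14.8, a log2 difference of 3.23 (SE 1.22, adjusted p = 0.666). PSAE-1, a photosystem I subunit, read 398.3, 1237.5 and 1342.8 against 135.7, 418.5 and 17.8, a difference of 2.88 (SE 1.19), and 4.70 in the upper embryo. In both, heart root replicate 1 overlapped the globular basal arrays. The 69 plastid-encoded genes had a median of -0.10 with 30 above 0, and single arrays decided several of them, such as rpl20 at 445.6, 14752.1 and 19.9 against 54.1, 31.3 and 50.7.

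The 13 defensin-like LCR and PDF genes, small secreted cysteine-rich peptides, had the widest range of these families, from -2.91 to 4.33 with 8 above 0. LCR69 read 6238.0, 16016.5 and 9530.5 in heart root and 5204.9, 931.5 and 13.9 in globular basal, a log2 difference of 4.33 (SE 1.59, adjusted p = 0.651). LCR67 was at 581.3 and 806.2 on 2 heart root arrays but at 1.7 on replicate 1, against 3.1, 2.3 and 5.4, and passed only in the fits without that array. PDF2.1 read 535.2, 15.1 and 4968.1 against 128.4, 7.7 and 68.3, a difference of 2.82 (SE 1.33). LCR59 went the other way, with 6.2, 16.6 and 6.9 against 106.3, 89.1 and 17.2, a difference of -1.81 (SE 0.80).

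Cell wall and transport families lay near or below the array-wide median. The 18 expansins had a median of -0.60 with 3 above 0, and EXPA15 was even within groups, at 75.3, 80.8 and 99.3 against 198.0, 251.2 and 319.3, a log2 difference of -1.47 (SE 0.62, adjusted p = 0.731). The 9 XTH genes, xyloglucan-modifying enzymes, had a median of -0.53, and the 22 TBL genes, of polysaccharide acetylation, -0.63. The 15 SWEET sugar transporters had a median of -0.61 with 1 above 0, and after quantile normalization it was -0.21. The 33 IQD, TRM and TUB genes of microtubules had a median of -0.20, and the heart root arrays lay all above the globular basal arrays in 4 and all below in 1, beside 2.09% and 15.4% of all probe sets. TUB9, a beta-tubulin of that family whose groups overlapped, read 654.2, 717.8 and 61.3 against 83.2, 153.9 and 81.4. Of 28 listed cell division genes 4 were measured, with differences from -0.62 to 1.76, a median of 0.49 and 3 above 0. The highest was PRL, a subunit of the replication licensing complex. It read 189.2, 278.9 and 952.9 against 86.0, 150.6 and 82.3, a difference of 1.76 (SE 0.88, limma adjusted p = 0.767). PRL was the 1 of the 4 with heart root all above, beside 2.09% of all probe sets.

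Markers of neighbouring tissues were summed as linear intensities, as the captures could hold them. The 4 measured of 10 endosperm genes, AGL62, IKU2, AGL80 and MPC, summed to 289.8 to 459.5 in heart root and 352.1 to 550.1 in globular basal, which overlap. The members went both ways, with 2 of 4 above 0 and none called. In MPC alone the groups did not overlap, at 41.3, 39.9 and 85.5 in heart root against 161.3, 384.8 and 108.3. Its log2 difference of -1.68 was the lowest of the 4. The 2 measured of 13 seed coat genes, BAN and DFR, summed to 67.2 to 102.4 in heart root and 116 to 198.9 in globular basal, which do not. BAN, the enzyme that marks the inner seed coat, was at 5.1 to 9.2 on the heart root arrays and at 10.3, 91.8 and 8.5 on the globular basal arrays, which overlap. DFR, an enzyme of flavonoid synthesis, read 70.0, 97.3 and 58.0 in heart root and 119.4, 107.1 and 107.5 in globular basal, which do not overlap. Its log2 difference was -0.54 (SE 0.75, limma adjusted p = 0.886). Of all probe sets, 15.4% had every heart root array below every globular basal array, and the median difference was -0.39. The 6 measured of 16 shoot meristem and cotyledon genes summed to 200.8 to 300.4 and 217.4 to 495.1. The 5 root pole genes summed to 546.1 to 913.2 in heart root and 233.2 to 3145.1 in globular basal, the highest being the array on which BBM read 2851.1. None of the 6 suspensor genes listed has a named single-gene probe set here, so a suspensor share in the globular basal captures was not tested. The part of these tissues in the differences above was not tested either.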

How the data were processed

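The deposited intensities of 27 1-colour Affymetrix ATH1 arrays come from MAS5, per the submitters' processing notes. Its version, its settings and the detection calls were not used here, so a low value is not shown to be above background. Scanner files were not analysed here. The scale was taken as linear, since the trimmed mean is about 100 on each array, and no centring is evident.

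Groups were taken from titles, and 2 arrays whose title and tissue contradict were left out. A pseudocount of 10 was added, values were taken as log2, and 64 control probe sets were removed. limma 3.58.1 in R 4.3.3 fitted 1 mean per group over 25 arrays in 9 groups, with an intensity trend. Tests were 2-sided, with Benjamini-Hochberg adjustment over 22746 probe sets and a threshold of 0.05. The fit was tested on simulated data. Errors are SDs over arrays for intensities and standard errors of the fit for log2 differences.

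Of the probe sets, 13513 had 1 gene, 503 several and 8730 none in the platform's annotation table. RefSeq names of assembly TAIR10.1 matched 13436, and 11933 carry only a locus code. In the lists and families each gene is represented by its single-gene probe set with the highest mean over the 25 arrays. Genes named by the size of their difference were drawn from all 13513 single-gene probe sets.

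Genes were named by rule. Up to 12 called rises and 12 called falls came first, with places left filled by the largest non-overlapping differences with an unadjusted p under 0.01 and a mean of at least 100 in the higher group. All measured root pole and embryo axis genes were added, as were called members of the lists and of the lower against upper comparison, of which there were none. The members and lists were chosen with earlier results of these data known, and family members named outside the rule were chosen after their values were seen. Alternatives were quantile normalization, median centring, pseudocounts of 1 and 50, a filter, no trend, array weights, smaller fits, a replicate block and leaving out arrays.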

Additional observations from a re-analysis of the deposited data

How the results depend on the processing

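The heart root against globular basal comparison called 4 probe sets. The count became 10 after median centring (7 higher, 3 lower), 8 with a pseudocount of 50 (4 higher, 4 lower), 8 with array weights, 0 in the fit of 6 arrays and 0 in that fit with the replicate block. It ranged from 4 to 32 when 1 array was left out, and was 20 without both heart root replicate 1 and globular basal replicate 2, an alternative chosen after seeing the data. The lower against upper comparison ranged from 0 to 1, the 1 arising without globular basal replicate 3. The cause of these moves was not tested. The smaller fits estimate the spread from fewer arrays, and the part this played was not tested either. Of 18 alternatives, AT3G24510 and 261305_at passed in 16 and the other 2 called probe sets in 15, and all 4 passed whichever single array was left out. Replicate numbers did not pair the arrays (correlations of same-numbered deviations -0.03, -0.12 and 0.07), and a replicate block over 25 arrays left the count at 4. Differences that changed sign, none of them called, were CR4 (0.00040 after median centring), OBE1 (0.34 after median centring), BBM (-0.015 with array weights) and IAA20 (-0.76 without the array pair). With 1 array left out they ranged from -1.33 to 0.57, -1.55 to 1.25, -1.41 to 2.34 and -0.68 to 1.17. CR4 was at -1.37 without the array pair. MAS5 background correction could not be varied, and 3 arrays a group limit the precision.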
